A study of Mus musculus with 6 samples.

Results

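Enterochromaffin cells are the serotonin-making endocrine cells of the gut epithelium, and many also make peptides and carry ion channels that respond to luminal irritants. The 9 genes described here are Tac1 and Ucn3, which encode peptides, Trpa1 and Trpc7, which encode cation channels of the TRP family, the adhesion gene Amigo2, and the 4 receptor genes Tacr1, Tacr2, Tacr3 and Crhr2. They were taken by gene name from 23699 deposited gene models. Their RNA was compared between mutant and control duodenum, and the first 5 were chosen by their lower values in the mutants in that same comparison (adjusted p in the authors' table), so their differences are given as a description. The receptor genes were added for their ligands.

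The precursor encoded by Tac1 is cut into substance P and neurokinin A, which act through G-protein-coupled receptors on enteric neurons, smooth muscle, epithelium and immune cells. Urocortin 3, the product of Ucn3, is a peptide of the corticotropin-releasing factor (CRF) family and a selective ligand of CRHR2. TRPA1 is a calcium-permeable channel opened by electrophilic irritants such as mustard oil, and its opening in enterochromaffin cells releases serotonin. In the gut, Tac1 is also made by enteric neurons, and Ucn3 is also a gene of pancreatic beta cells.

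RNA sequencing was done on the 2 cm of duodenum nearest the stomach of 6-week-old mice of mixed background. Mutants 1 and 2 were Nkx2.2flox/flox; Villin-Cre/+, mutant 3 was Nkx2.2flox/flox; Villin-Cre/+; Rosa26Tomato/+, and the 3 controls were Nkx2.2flox/+ without Cre, so that all 6 carried at least 1 floxed allele. Villin-Cre acts in the intestinal epithelium and not in neurons, muscle or blood cells, and deletion of Nkx2-2, which encodes a homeodomain factor of endocrine cells, cannot be told apart from the presence of Cre in this design. No label states that the 6 libraries come from different mice. The 3 mutants differ from each other in genotype or in Xist (given below), so their spread includes differences between mice. The p-values here reflect how far the libraries differ, which among the controls may be technical.

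Depth lay between 21.0 and 23.8 M fragments in mutants and between 21.4 and 26.3 M fragments in controls. Levels are FPKM (fragments per kilobase of transcript, scaled to library depth), and all log2 changes are mutant minus control on the log2(FPKM + 0.5) scale, which understates the change of low genes. The targeted gene Nkx2-2 lay at 1.10, 0.736 and 0.221 FPKM in mutants 1 to 3, against 1.13, 1.32 and 0.779 FPKM in controls 1 to 3. Mutant 1 and control 3 overlapped, and since the floxed exons are not named in the labels, this level does not check the genotype. Xist, an X-linked RNA of female cells, lay at 0.0177, 19.7 and 22.5 FPKM in mutants, against 0.0894, 0.0229 and 0.0293 FPKM in controls, so that mutant 1 was the mutant library that matched the controls in this respect. Control 2 also held gastric transcripts, with the stomach gene Gkn2 at 207 FPKM there and at most 1.28 FPKM in the other 5 libraries. Markers of the intestinal epithelium were abundant in all 6, with Vil1 between 528 and 702 FPKM in mutants and between 561 and 651 FPKM in controls. Their sum was less even, at 28280, 35146 and 18342 FPKM in mutants 1 to 3, against 28345, 27151 and 15417 FPKM in controls 1 to 3. Library 3 was thus lowest in both groups, and the part of this in other genes was not tested.

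The region before the start of each gene was examined first, since Nkx2-2 is a DNA-binding protein and NKX2-class homeodomains recognise sites with an AAGTG core. RefSeq promoters (table on GRCm38.p6) were found for 8 of the 9 genes, and not for Trpa1. The 250 bases before the start were searched on both strands for AAGTG and for the longer TNAAGTGG, in which N is any base. Ucn3 held a match to TNAAGTGG, which includes its only AAGTG. Tac1, Amigo2, Trpc7, Tacr1, Tacr2 and Tacr3 held neither, and Crhr2 held AAGTG alone. The start is that of RefSeq, which lay upstream of the deposited start by 201 bases for Trpc7 and 44 bases for Crhr2, and slightly upstream for Tac1. The bases between those starts were not searched. Among 27025 RefSeq promoters of the same length, 40.8% held AAGTG and 2.66% held TNAAGTGG. A match is a description of letters and not of a bound site. The promoters of both peptide genes are shown because, of the 9 genes, they had the smallest p in the authors' deposited table. Both were found once, without mismatch, in the NCBIM37 (mm9) genome, at chr13:3944596-3944845 on the minus strand for Ucn3 and at chr6:7504811-7505060 on the plus strand for Tac1. They read 5′ to 3′ in the direction of the gene, and capitals mark TNAAGTGG, which begins 207 bases before the start of Ucn3.
Ucn3: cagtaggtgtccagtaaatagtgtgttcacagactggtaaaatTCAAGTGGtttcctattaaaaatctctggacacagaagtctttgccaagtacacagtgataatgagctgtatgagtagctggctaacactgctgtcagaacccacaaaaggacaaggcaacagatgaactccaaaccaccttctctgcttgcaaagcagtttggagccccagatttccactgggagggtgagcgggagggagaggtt
Tac1: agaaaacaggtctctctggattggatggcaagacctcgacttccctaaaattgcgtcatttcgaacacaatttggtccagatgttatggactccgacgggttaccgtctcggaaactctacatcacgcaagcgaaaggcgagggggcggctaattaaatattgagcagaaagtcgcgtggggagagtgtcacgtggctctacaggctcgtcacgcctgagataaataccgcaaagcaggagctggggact
The match in Ucn3 reads TCAAGTGG, and the Tac1 window holds no capital letter.

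Tac1 (chromosome 6, 7505071 to 7512973, mm9) was the most abundant of the 9 genes in controls. It lay at 1.77, 1.07 and 2.55 FPKM in mutants 1 to 3, against 11.1, 10.7 and 11.3 FPKM in controls 1 to 3. The groups did not overlap, and the highest mutant, mutant 3, lay at 0.237 of the lowest control. These values rested on 31, 21 and 44 fragments in mutants and on 239, 193 and 200 fragments in controls. The log2 change was -2.38 ± 0.23 (limma, standard error), and the mutant mean was 16.3% of the control mean. The 3 controls were more alike than counting alone would give on average, with a coefficient of variation of 2.59% where the number of fragments gives 6.89%. In the mutants the coefficient of variation was 41.2%, against 17.7% from counting. In bulk tissue, fewer cells of a type and less RNA per cell cannot be told apart, for this gene and for those below.

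Ucn3 (chromosome 13, 3939934 to 3944595) lay at 0.259, 0.0993 and 0.113 FPKM in mutants 1 to 3, against 1.89, 1.81 and 1.29 FPKM in controls. No mutant reached any control, and the mutant mean was 9.45% of the control mean. The transcript was rare, with 7, 3 and 3 fragments in mutants and 63, 50 and 35 in controls. Its log2 change was -1.72 ± 0.18. Pooled over libraries and divided by depth, the fragments of the mutants came to 9.24% of those of the controls, with an exact 95% interval of 4.80% to 16.3% that covers counting error only.

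**Figure D1:**
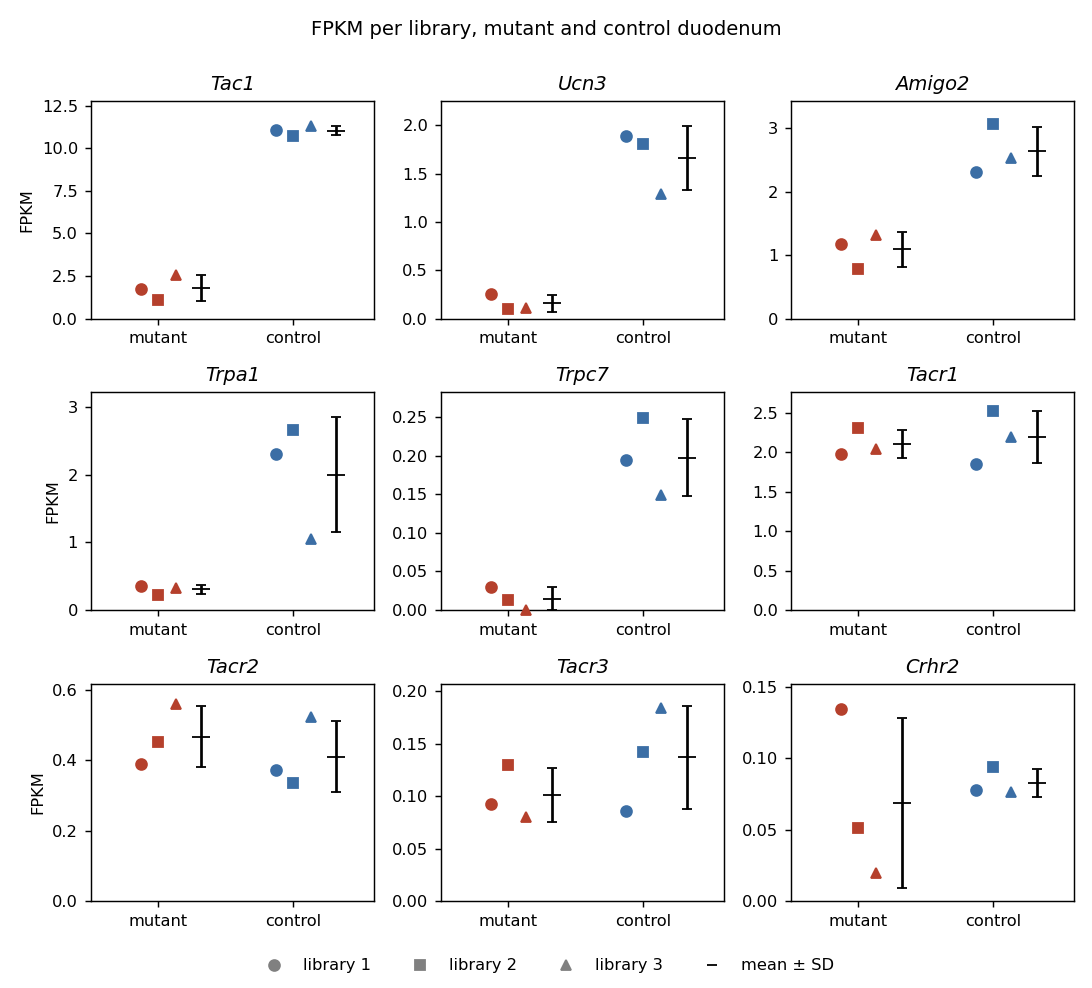
FPKM (vertical axes, each from 0) of the 9 genes in the 3 mutant (left) and 3 control (right) libraries, with the mean and SD in black; marker shapes give the library number. The groups are apart for Tac1, Ucn3, Amigo2, Trpa1 and Trpc7 and overlap for the 4 receptor genes.

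Trpa1 (chromosome 1, 14862729 to 14908943) lay at 0.359, 0.228 and 0.330 FPKM in mutants 1 to 3, against 2.31, 2.66 and 1.05 FPKM in controls. The groups did not overlap, and control 3 stood well below the other controls. The fragments were 31, 22 and 28 in mutants and 246, 235 and 91 in controls, with control 3 well below the other controls. The coefficient of variation in controls was 42.3%, against 7.24% from counting. The log2 change was -1.58 ± 0.27, and the mutant mean was 15.2% of the control mean.

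Trpc7 (chromosome 13, 56874469 to 56996949), which encodes a receptor-operated cation channel, was near the limit of detection. It lay at 0.0300, 0.0134 and 0 FPKM in mutants, against 0.195, 0.249 and 0.149 FPKM in controls. These were 2, 1 and 0 fragments in mutants and 16, 17 and 10 fragments in controls. All 3 mutants lay below all 3 controls, and the pooled fragments per depth were 7.34% of the controls (3 against 43 fragments, 95% counting interval 1.46% to 22.9%). No library reached 0.5 FPKM, so Trpc7 was not tested with limma.

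Amigo2 (chromosome 15, 97074505 to 97077718) encodes a leucine-rich repeat protein of cell adhesion. It lay at 1.18, 0.777 and 1.32 FPKM in mutants 1 to 3, against 2.32, 3.07 and 2.53 FPKM in controls. The groups did not overlap, but the mutant mean was still 41.4% of the control mean, more than for the other 4 genes with groups apart. Its log2 change was -0.99 ± 0.18. The authors' files split Amigo2 into 3 isoforms, and that split moved between replicates of 1 group: the isoform of 2871 bases lay at 0.897, 0.000108 and 2.54e-05 FPKM in mutants and at 0.841, 0.399 and 2.18 FPKM in controls. The isoform levels were therefore not compared, and the other 8 genes have 1 isoform each. The model of Fam113b shares 181 bases with Amigo2 at 97077538 to 97077718, and strand-specific counting is not stated. Fam113b lay at 0.953, 0.428 and 1.06 FPKM in mutants, against 0.789, 0.652 and 1.04 FPKM in controls.

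Read against the authors' deposited DESeq table, 5 of the 9 genes, Tac1, Ucn3, Amigo2, Trpc7 and Trpa1, were lower in mutants at an adjusted p under 0.05, where 0.0914% of 18605 genes were lower by that measure and 0.14% differed in either direction. They stood at ranks 3, 6, 16, 23 and 24 by p in the authors' deposited table. In the authors' deposited table, Trpc7 and Trpa1 lay just inside the threshold (adjusted p 0.0423 and 0.0470), and the granule gene Chgb (0.105) and the enterochromaffin transcription factor gene Lmx1a (0.117) lay outside it. The same 5 genes had groups that did not overlap, with mutants lower, as did 3.17% of all 23699 gene models and 3.71% of the genes tested (7.75% of the genes tested in either direction). In the limma fit, 5 of the 9 genes passed the filter on low values (at least 0.5 FPKM in at least 3 libraries), and Ucn3 and Trpa1 did so through the controls alone. Of these 5, Tac1 was past the adjusted threshold (limma adjusted p = 0.0491), where 0.0147% of 13596 genes were called lower and 0.0221% in either direction. With the replicate number as a block, Tac1 (limma adjusted p = 0.000673) and Ucn3 (0.00526) were called. By that fit 0.0956% of genes were called lower and 0.162% in either direction, and it assumes that the numbers pair the libraries. Without the block, Tac1 was not called when mutant 1 (limma adjusted p = 0.0968), control 1 (0.310), control 2 (0.317) or control 3 (0.0964) was left out, and Ucn3 was called when mutant 3 was left out. These counts come from the contrast that chose the genes and are not evidence for them. In mutant 1 alone, the mutant library without Xist, Tac1 lay at 16.0%, Ucn3 at 15.6%, Trpa1 at 17.9%, Trpc7 at 15.2% and Amigo2 at 44.6% of the control mean.

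**Figure D2:**
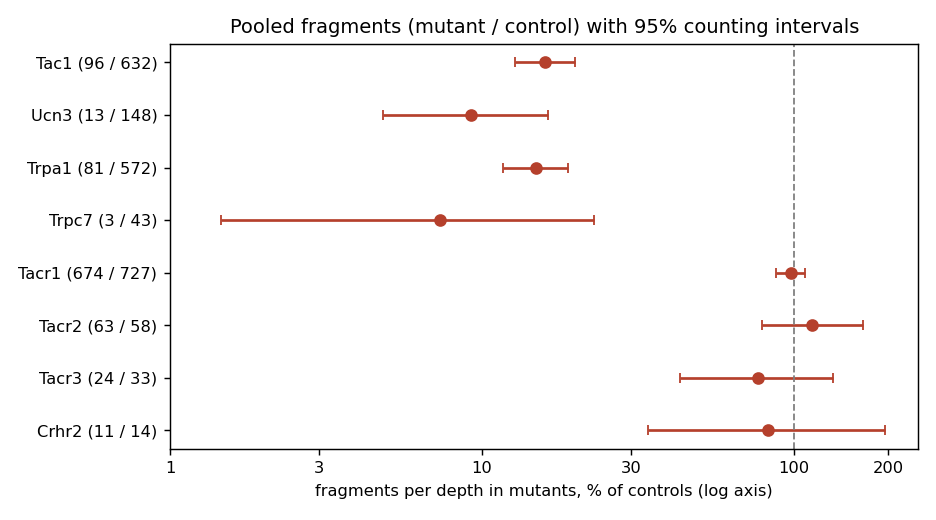
Fragments pooled over 3 mutant libraries, per depth, as a percentage of those pooled over 3 control libraries (horizontal log axis), with exact 95% intervals for counting error; the numbers beside each gene are its mutant and control fragments, and Amigo2, with 3 isoforms, is not shown. Tac1, Ucn3, Trpa1 and Trpc7 lie between 7.34% and 16.0%, and the intervals of the 4 receptor genes include 100%.

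The receptors of both peptides were measured in the same libraries. Tacr1 (chromosome 6, 82352469 to 82510098), the NK1 receptor that prefers substance P, lay at 1.98, 2.31 and 2.04 FPKM in mutants, against 1.86, 2.52 and 2.20 FPKM in controls. The groups overlapped throughout (log2 change -0.04 ± 0.15, limma adjusted p = 0.999). Its pooled fragments, 674 in mutants and 727 in controls, came to 97.5% of the controls per depth, with a counting interval of 87.7% to 108.4%. The missed threshold does not show that the levels were equal.

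Tacr2 (chromosome 10, 61715186 to 61728738), the NK2 receptor that prefers neurokinin A and is known from gut smooth muscle, lay at 0.390, 0.451 and 0.559 FPKM in mutants, against 0.372, 0.336 and 0.524 FPKM in controls. The groups overlapped, and the pooled ratio was 114.2% (interval 78.7% to 166%, 63 and 58 fragments). Tacr3 (chromosome 3, 134491971 to 134597545), the NK3 receptor of enteric neurons, lay at 0.0926, 0.130 and 0.0806 FPKM in mutants, against 0.0857, 0.142 and 0.184 FPKM in controls. Those values rested on 24 fragments in mutants and 33 in controls, and the interval of their ratio, 43.3% to 133%, is wide. Crhr2 (chromosome 6, 55040042 to 55082966), the receptor of urocortin 3, lay at 0.135, 0.0515 and 0.0195 FPKM in mutants, against 0.0779, 0.0939 and 0.0763 FPKM in controls. With 11 fragments in mutants and 14 in controls, a moderate difference for Crhr2 was not detectable at this depth (82.6%, interval 33.9% to 196%). Tacr2, Tacr3, Trpc7 and Crhr2 were the 4 genes under the filter and have no limma test.

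The order of levels per length differed between the groups at the top. In mutants, Tacr1 (2.11 ± 0.175 FPKM, SD, n = 3), Tac1 (1.796 ± 0.740 FPKM) and Amigo2 (1.09 ± 0.280 FPKM) led. The ranges of Tacr1 and Tac1 overlapped, as did those of Tac1 and Amigo2. Below them in mutants came Tacr2 (0.467 ± 0.0857 FPKM), Trpa1 (0.306 ± 0.0690 FPKM), Ucn3 (0.157 ± 0.0888 FPKM), Tacr3, Crhr2 and Trpc7, and from Trpa1 down each neighbour overlapped the next. In controls, Tac1 (11.0 ± 0.286 FPKM, SD, n = 3) lay above all others without overlap. Amigo2 (2.64 ± 0.386 FPKM), Tacr1 (2.19 ± 0.333 FPKM), Trpa1 (2.01 ± 0.849 FPKM) and Ucn3 (1.66 ± 0.328 FPKM) followed in controls, and each overlapped its neighbour. Tacr2 (0.411 ± 0.0996 FPKM) came next in controls, apart from Ucn3 above and Trpc7 below it. Tacr1 lay above Tacr2, and Tacr2 above Tacr3, in every library of both groups.

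Serotonin-pathway and granule genes of enterochromaffin cells gave the setting for these values. Tph1, which encodes the enzyme that limits serotonin synthesis outside the brain, lay at 3.00, 1.13 and 1.04 FPKM in mutants 1 to 3, against 19.5, 15.3 and 9.19 FPKM in controls. Control 3 was the lowest control for Tph1, as it was for Ucn3, Trpa1 and Trpc7, and also for Chga (23.9 FPKM, against 52.2 and 44.0 in controls 1 and 2), Chgb (61.1, against 113 and 110.4) and Lmx1a (0.268, against 0.828 and 0.704). For Tac1 control 3 was the highest control, and for Amigo2 it was in the middle. Within each library, Ucn3 per Tph1 was 0.0866, 0.0878 and 0.109 in mutants, against 0.0971, 0.118 and 0.140 in controls, so that these ranges overlapped. Per Chga it was 0.0210, 0.00997 and 0.0161 in mutants, against 0.0363, 0.0411 and 0.0538 in controls, without overlap. Whether Ucn3 stood apart thus depended on the gene it was divided by. Amigo2 per Tph1 was 0.393, 0.687 and 1.27 in mutants, against 0.119, 0.201 and 0.275 in controls, without overlap, while per Chga it was 0.0951, 0.0780 and 0.188 in mutants, against 0.0443, 0.0696 and 0.106 in controls, with overlap. Tac1 per Tph1 overlapped, at 0.590, 0.946 and 2.46 in mutants, against 0.567, 0.703 and 1.23 in controls, and in both groups library 3 was highest. Tac1 per Chga also overlapped, at 0.143, 0.107 and 0.363 in mutants, against 0.212, 0.244 and 0.473 in controls. Trpa1 per Tph1 overlapped, at 0.12, 0.201 and 0.318 in mutants, against 0.119, 0.174 and 0.114 in controls. Trpa1 per Chga did so too, at 0.0291, 0.0229 and 0.047 in mutants, against 0.0443, 0.0604 and 0.04375 in controls. Trpc7, on few fragments, overlapped per Tph1 and not per Chga.

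**Figure D3:**
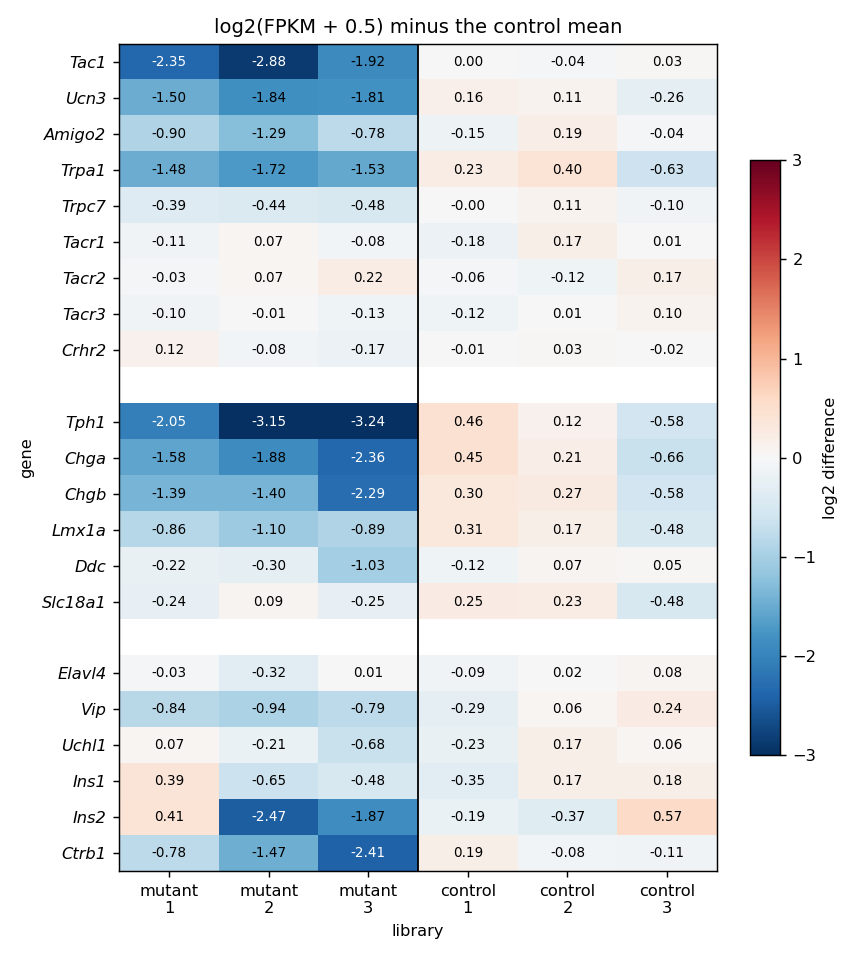
Each cell gives log2(FPKM + 0.5) minus the control mean for 1 gene (rows) in 1 library (columns, mutants left of the line and controls right of it); blue is lower and red higher, and colours end at 3 on the log2 scale. The top block holds the 9 genes, the middle block enterochromaffin genes and the bottom block genes of enteric neurons (Elavl4, Vip, Uchl1) and pancreas (Ins1, Ins2, Ctrb1). Tac1 lies between -2.88 and -1.92 in the mutants, and Ucn3 between -1.84 and -1.50.

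Over the enterochromaffin list, 18 of 19 names matched a gene model and 14 were tested, of which Tac1 alone was called in limma and 8 had an unadjusted p under 0.05, as did 467 of all 13596 genes tested. With the replicate block 5 were called, Tph1, Chga, Chgb, Tac1 and Ucn3, and the authors' deposited table called 4, Tph1, Tac1, Ucn3 and Trpa1. Tac1, Ucn3 and Trpa1 are themselves on that list and were chosen by the authors' table. The groups of 8 of the 14 were apart with mutants lower, as were those of 3.71% of the genes tested. These 8 were Tph1, Ddc, Fev, Chga, Chgb, Tac1, Ucn3 and Trpa1. The median log2 change of the 14 was -0.73, beside -0.02 for all 13596 genes tested. Slc18a1, a vesicular monoamine transporter, lay at 3.64, 4.69 and 3.61 FPKM in mutants, against 5.32, 5.22 and 3.01 FPKM in controls, with overlap, and Adra2a, an adrenergic receptor, lay at 2.87 ± 0.765 FPKM in mutants and 3.10 ± 0.646 FPKM in controls (SD, n = 3 each). Neither passed in limma. Fam38b, the older name of the mechanosensitive channel gene Piezo2, lay at 0.208 ± 0.0538 FPKM in mutants and 0.196 ± 0.0821 FPKM in controls, under the filter.

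Enteric neurons are another known source of Tac1. The 16 neuronal markers together summed to 40.2 to 46.4 FPKM in mutants, against 53.7 to 71.6 FPKM in controls. The median log2 change of the 11 tested was -0.29, with all 11 lower. Of all 13596 genes tested, 55.8% were lower, with a median of -0.02. Limma called 0 of them (2 at an unadjusted p under 0.05), the replicate block called Vip and Npy, and the authors' deposited table called Vip. Their part in the Tac1 values was not tested. The pan-neuronal gene Elavl4 lay at 0.569, 0.378 and 0.604 FPKM in mutants, against 0.525, 0.607 and 0.656 FPKM in controls, and its groups overlapped. Vip lay at 11.6 ± 0.648 FPKM in mutants and 21.7 ± 4.03 FPKM in controls (SD, n = 3 each), without overlap. Smooth muscle markers, which summed to 595 to 845 FPKM in mutants and 553 to 1057 FPKM in controls, overlapped, with 0 of 8 called in limma and 0 at an unadjusted p under 0.05.

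Pancreatic islets are another known source of Ucn3, and pancreas lies against the duodenum. The beta cell gene Ins2 lay at 13.5, 1.39 and 2.36 FPKM in mutants, against 8.67, 7.59 and 15.1 FPKM in controls, and Ins1 at 1.28, 0.364 and 0.473 FPKM in mutants, against 0.566, 1.02 and 1.04 FPKM in controls. Mutant 1 had Ins2 within the range of the controls, and mutants 2 and 3 lay below it. The beta cell genes G6pc2, Slc30a8 and Nkx6-1 were listed at 0 in all mutants and reached at most 0.0423 FPKM in controls, and Mafa reached at most 0.165 FPKM in any library. The 7 islet markers summed to 1.85 to 15.1 FPKM in mutants, against 8.80 to 16.8 FPKM in controls. These sums overlapped. Exocrine pancreas markers summed to 2299 to 9692 FPKM in mutants, against 9907 to 15379 FPKM in controls, without overlap. Limma called 0 of these 10 genes, and the authors' deposited table called 1, Ctrb1 (DESeq adjusted p 0.0182). Of the 10, 5 had an unadjusted limma p under 0.05, as did 467 of all 13596 genes tested. The groups of 5 were apart with mutants lower, as were those of 3.71% of the genes tested. The part of either list in the Ucn3 values was not tested.

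Of the 7 genes of the CRF list, Ucn3 passed the filter, through the controls alone. Ucn and Crhbp, which encodes a CRF-binding protein, were listed at 0 in all 6 libraries, Crh reached 0.0430 FPKM in mutant 3, and Crhr1 reached 0.0207 FPKM in control 2. Ucn2 lay at 0, 0.106 and 0.301 FPKM in mutants, against 0, 0 and 0.294 FPKM in controls. In mutants 2 and 3 it was listed above Ucn3, which rested on 3 fragments in each, so this order is uncertain. Of the other tachykinin genes, Tac2, the neurokinin B precursor, lay at 0.399, 0.401 and 0.456 FPKM in mutants, against 0.324, 0.390 and 0 FPKM in controls, with mutants above all controls but under the filter. Tac4, the hemokinin precursor, was listed at 0 in 5 libraries and at 0.0460 FPKM in mutant 3.

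Among enzymes that mature or degrade such peptides, 0 of 9 tested passed in limma and 2 had an unadjusted p under 0.05, Cpe and Dpp4. Cpe, a prohormone-processing carboxypeptidase, lay at 74.5, 62.8 and 44.7 FPKM in mutants, against 33.8, 38.5 and 43.5 FPKM in controls, with no overlap and mutants higher. Pcsk1n, an inhibitor of a prohormone convertase, lay at 1.77 ± 0.210 FPKM in mutants and 2.32 ± 0.209 FPKM in controls (SD, n = 3 each), with no overlap and mutants lower. Mme, the brush border peptidase neprilysin that degrades substance P, lay at 191 ± 91.0 FPKM in mutants and 146 ± 69.6 FPKM in controls, with overlap. Ace, which can also cleave substance P, lay at 207.7 ± 85.7 FPKM in mutants and 112 ± 32.6 FPKM in controls (SD, n = 3 each), with overlap. Its log2 change was 0.84 with and without the replicate block. Ace passed with the block (limma adjusted p = 0.0259) but not without it (0.999). The median log2 change of the 9 was 0.08. Of the prohormone convertases, Pcsk1 lay at 3.82 ± 0.980 FPKM in mutants and 3.95 ± 0.913 FPKM in controls, with overlap. Pcsk2, under the filter, lay at 0.322, 0.278 and 0.334 FPKM in mutants, against 0.345, 0.618 and 0.432 FPKM in controls, with all mutants lower.

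Trpa1 and Trpc7 were then set beside the other TRP channels. Of 28 channel genes, 14 were tested, limma called 0 of them, and 2, Trpa1 and Trpm5, had an unadjusted p under 0.05. The authors' deposited table called 2 of the 28, Trpa1 and Trpc7, which were chosen by that table, so these calls were fixed in advance. It called 0.14% of 18605 genes in either direction. The median log2 change of the 14 was -0.04, beside -0.02 for all genes tested. The epithelial calcium channel gene Trpv6 was the most abundant, at 93.4, 62.2 and 58.1 FPKM in mutants, against 76.8, 89.1 and 103 FPKM in controls, and its groups overlapped. Trpm4, a calcium-activated cation channel, lay at 27.3 ± 2.12 FPKM in mutants and 27.2 ± 3.32 FPKM in controls (SD, n = 3 each). Trpm7 lay at 11.9 ± 0.299 FPKM in mutants and 10.4 ± 0.698 FPKM in controls, without overlap (log2 change 0.18 ± 0.10), and did not pass.

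Trpm5, the cation channel of tuft cell taste transduction, lay at 11.0, 12.0 and 2.98 FPKM in mutants 1 to 3, against 1.71, 2.14 and 3.45 FPKM in controls. Mutant 3 lay within the controls, and Trpm5 was called when mutant 3 was left out (limma adjusted p = 0.0206, log2 change 2.07), a gene named here after its values were seen. The 7 tuft cell markers summed to 83.3, 95.9 and 26.3 FPKM in mutants 1 to 3, against 21.1 to 27.7 FPKM in controls, so that they moved with Trpm5 (0 of 6 tested called in limma, 1 at an unadjusted p under 0.05, median log2 change 1.14), and their part in its values was not tested. Trpv1, the capsaicin receptor of sensory neurons, lay at 0.0407, 0.0182 and 0.0207 FPKM in mutants and was listed at 0 in controls, and the cold receptor gene Trpm8 was listed at 0 in all 6 libraries.

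**Figure D4:**
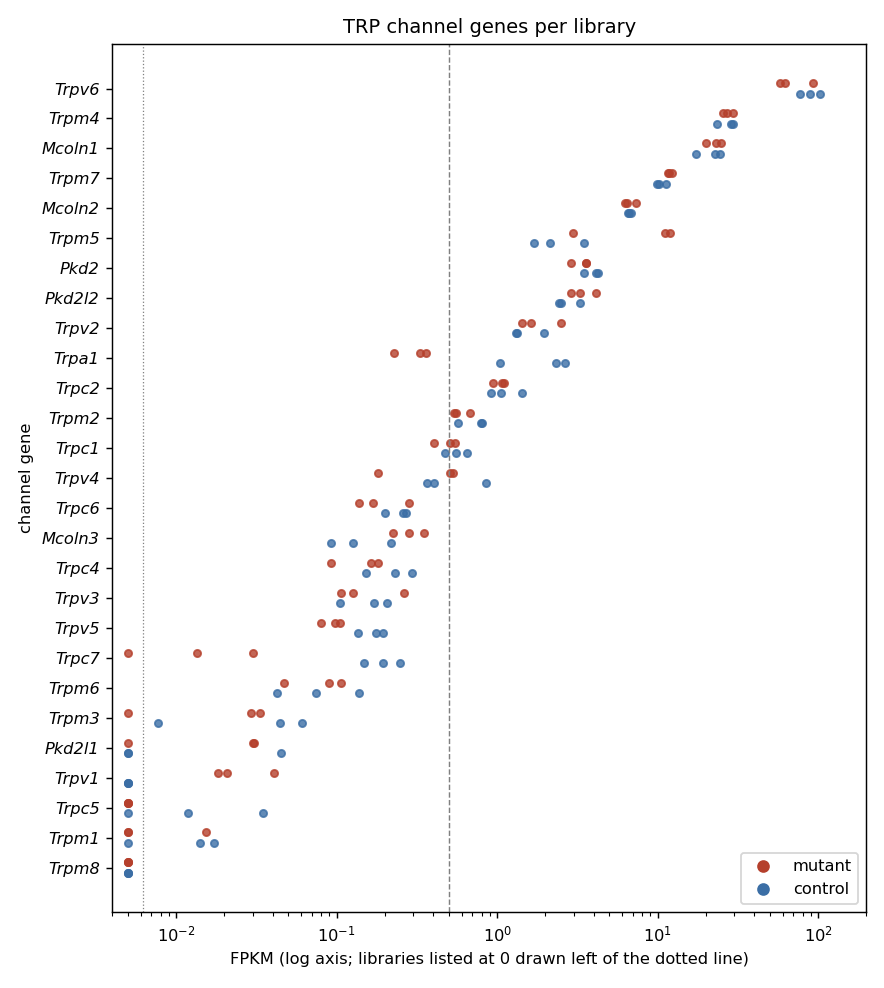
FPKM (horizontal log axis) of the TRP channel genes shown, in each library, mutants in red above controls in blue; the dashed line is 0.5 FPKM, and libraries listed at 0 stand left of the dotted line. Trpa1 and Trpc7 have mutant values well to the left of the control values, while Trpv6, Trpm4 and Mcoln1 overlap.

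The AMIGO family had 3 measured genes. Amigo1 lay at 1.97 ± 0.241 FPKM in mutants and 2.28 ± 0.417 FPKM in controls, and Amigo3 at 3.796 ± 0.599 FPKM in mutants and 3.86 ± 0.828 FPKM in controls (SD, n = 3 each). Both overlapped between the groups, limma called 0 of the 3 genes, and Amigo2 had an unadjusted p under 0.05. The authors' deposited table called Amigo2, which was chosen by that table, so this call was fixed in advance.

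Likeness of pattern was measured as the root mean square distance, on the log2 scale over the 6 libraries, between deviations from the control mean. For Tac1 the 5 nearest of 12476 named genes were the K cell hormone gene Gip (distance 0.52), Ucn3 (0.57), Reg3d (0.58), Pyy (0.59) and Chga (0.65), where the median over all genes was 1.69. For Ucn3 they were Trpa1 (0.23), the neurotensin gene Nts (0.28), the somatostatin gene Sst (0.28), Chga (0.31) and Chgb (0.31), with a median of 1.22. For Trpa1 they were Ucn3 (0.23), Ambp (0.32), Chgb (0.35), Chga (0.37) and Nts (0.39), with a median of 1.16. Amigo2 had other neighbours, namely Itih4 (0.17), the neuropeptide gene Vip (0.20), Tpbg (0.22), Gsta3 (0.26) and Serinc3 (0.28), with a median of 0.72. All 4 patterns are dominated by the gap between the groups, and the distances describe these 6 libraries alone. They also depend on the 0.5 FPKM added before the log, which understates the change of low genes. With 0.5 FPKM the log2 change was -1.72 for Ucn3, -1.46 for Nts and -1.63 for Sst. With 0.1 FPKM it was -2.81 for Ucn3, -2.90 for Nts and -1.65 for Sst. The distances were not computed at that setting.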

How the data were processed

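RNA of the proximal duodenum was made into TruSeq libraries and read on a HiSeq2000, per the labels' protocols. For the authors' own steps, the submitters' processing notes list mm9, TopHat, Cufflinks, DESeq and CASAVA 1.8.2, without roles or options. Per library the authors deposited FPKM per gene and isoform, and isoform coverage as a signal, per the file headers. The authors' deposited DESeq table holds mean normalized counts per group (a signal), the ratio of those means as a fold, the log2 of that ratio, and a raw and an adjusted p-value.

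Genes with at least 0.5 FPKM in at least 3 libraries (13596 of 23699) were fitted as log2(FPKM + 0.5) with limma 3.58.1 (R 4.3.3, statmod 1.5.0, with trend and robust prior), two-sided, Benjamini-Hochberg adjusted, threshold 0.05. Fragments were read from the Cufflinks intervals of single-isoform genes: all 47 values above 0 lay within 0.1 of a whole number, and the coverage, at a read length fitted as 101.0 bases, gave the same. Depth came from the ratio of coverage to FPKM. Intervals are exact (Clopper-Pearson, 95%) and cover counting error only. Python 3.11.15, pandas 2.3.3, numpy 2.4.6 and matplotlib 3.10.9 were used.

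Groups came from the titles. Both groups carry the numbers 1 to 3, and deviations from the group means had correlations of 0.26, 0.25 and 0.58 between libraries of the same number. For the blocked fit the numbers were read as pairing the libraries, but number 3 alone stood apart from the other pairings. Mutant 2 correlated at 0.30 with control 1, and mutant 1 at 0.19 with control 2. The pairing of numbers 1 and 2 is thus an assumption, on which the blocked values rest. The fit behind the values given has no replicate block, and the blocked value is added where it changes a call. The fit was tested on simulated data.

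The 9 genes and the lists were chosen with earlier results of these data known. Named are the 9 genes; list members past the threshold, or otherwise the 2 of highest mean, and up to 3 whose groups do not overlap; the 5 nearest in pattern; and reference genes of other cell types. Other names were added after their values were seen. Lists are described by counts and medians, without a set test. 1 gene of the TRP list is counted there but its values are not reported here.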

Additional observations from a re-analysis of the deposited data

How the results depend on the processing

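Limma called 3 genes, and 1 without a filter, 1 with upper quartile scaling and 22 with the replicate block; leaving out 1 library gave 2 to 68 (68 without mutant 3, 8 without mutant 1). Tac1 lay lower in all 15 alternatives (log2 change -2.63 to -2.13) and was called in 7. The tachykinin list had 1 call, Tac1, and 0 with a pseudocount of 0.1, without a filter, with upper quartile scaling or without trend and robust prior, and 0 to 1 when 1 library was left out (0 without mutant 1 or any 1 control). The CRF and urocortin list had 0 calls and 1 with the replicate block, Ucn3 (0 to 1 when 1 library was left out, 1 without mutant 3). The list of processing enzymes had 0 calls and 1 with the block, Ace. The TRP list had 0 calls, and 0 to 1 when 1 library was left out (Trpm5 without mutant 3). Ucn3 (-2.81 to -1.20), Trpa1 (-2.29 to -1.16) and Amigo2 (-1.22 to -0.80) lay lower in all 15, with the pseudocount setting both ends of each of these ranges. Ucn3 was called in 2 of them, and Trpa1 and Amigo2 in 0. Tacr1 lay between -0.13 and 0.05. The block changed no other call among the 9 genes. With the cause of these movements not tested, the low levels remain a limit: Trpc7, Tacr3 and Crhr2 rest on at most 17 fragments in any library.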
